A study of Mus musculus with 8 samples.

Results

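The genes described here were 9 of the 24421 genes counted in bulk RNA-seq of MC38 tumors. They encode the plasminogen activators Plau and Plat, the receptor Plaur, the inhibitor Serpinb2, the stromelysins Mmp3 and Mmp10, the collagenase Mmp13, the membrane-anchored metalloproteinase Mmp14 and the metalloproteinase inhibitor Timp1. The list was drawn up with the values of these same tumors in view, so the levels of its genes in photoconverted and control tumors are given as a description and support no test. All 9 genes passed the filter on low counts. MC38 is a mouse colon adenocarcinoma line, and 250000 cells were injected into female B6 mice aged 9 weeks that carry Kaede, a protein whose green fluorescence turns red under violet light. Both groups carried the transgene and the tumor. In the photoconverted group, 4 tumors of about 5 mm received 405-nm light for 3 min on day 10, whereas 4 control tumors received none, and all were collected 5 h after the exposure.

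Plau (urokinase, uPA) and Plat (tissue plasminogen activator, tPA) are serine proteases that turn plasminogen into plasmin, which dissolves fibrin and cleaves matrix proteins. Plaur encodes uPAR, which holds urokinase at the cell surface. Serpinb2 (PAI-2) is a serpin that blocks both activators. Plasmin and the stromelysins can also activate the proforms of other metalloproteinases, and the TIMP proteins bind the active enzymes and inhibit them. In tumors and wounds these genes are known to be used by cancer cells, fibroblasts and myeloid cells.

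Total counts were between 12576615 and 35844417 per tumor. Photoconverted tumor 4, control tumor 2 and control tumor 4 stood apart, since Rn45s, a gene for the precursor transcript of ribosomal RNA, took 21.9% to 35.7% of their counts, against 2.70% to 9.65% in the other 5 tumors, called Rn45s-poor here. The 3 Rn45s-rich libraries were also those with the fewest counts, and values without them are given beside the results. Markers of the labeled tissue were partly absent: the 7 genes of simple epithelium summed to between 3.17 and 5.91 CPM (read counts relative to the TMM-scaled library size), 2 of the 7 passed the filter on low counts, and Krt8 did not exceed 0.977 CPM in any tumor. In bulk tumor RNA, fewer cells of a type and less RNA per cell cannot be told apart.

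Serpinb2 showed the widest difference of the 9 genes. It had 48.3, 20.8, 47.8 and 2.19 CPM in photoconverted tumors 1 to 4 and 7.22, 1.39, 2.56 and 0.855 CPM in the controls 1 to 4. Photoconverted tumors 1, 2 and 3 were thus above every control tumor, whereas photoconverted tumor 4 lay among the controls, below control tumors 1 and 3. The mean was 29.8 ± 22.4 CPM in photoconverted and 3.01 ± 2.90 CPM in the controls (SD, n = 4 each), a ratio of 9.91. The log2 fold change in edgeR was 3.23 with a standard error of 0.91, and 4 genes of the 14468 tested had a larger one. The lowest values rest on few reads, which were 32 in photoconverted tumor 4, 13 in control tumor 2 and 14 in control tumor 4. Their 95% Poisson intervals, which cover counting error only, were 1.496 to 3.09, 0.741 to 2.38 and 0.467 to 1.43 CPM. The gene lies on the plus strand of mm10 at chr1:107511423-107535478, and 12.4% of its exon bases also lie in exons of Serpinb10, to which no more than 15 reads were assigned in any tumor.

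Differences within tumors of the same replicate number were positive in 4 of 4 pairs for Serpinb2, at 2.73, 3.83, 4.18 and 1.28 on the log2 CPM scale. The smallest of these was that of pair 4, in which both libraries were rich in Rn45s. Pair 2 set an Rn45s-poor photoconverted library against an Rn45s-rich control, so group and Rn45s share cannot be told apart in its difference. Among the Rn45s-poor libraries, the 3 photoconverted tumors had 20.8 to 48.3 CPM and control tumors 1 and 3 had 7.22 and 2.56 CPM, and the log2 fold change was 2.97 (standard error 0.52) in edgeR. In the 3 Rn45s-rich libraries, the mean was 1.48 CPM, against 25.4 CPM in the other 5. Neutrophil markers were also highest in photoconverted tumors 1 to 3. The 8 counted genes of that list summed to 97.3, 103, 153 and 31.2 CPM in photoconverted tumors 1 to 4 and to between 25.8 and 47.3 CPM in the controls, and the defining marker S100a8 was detected in every tumor at 0.321 to 18.1 CPM. Skeletal muscle markers (10 of 10 genes tested) summed to 474, 798, 1595 and 191 CPM in photoconverted tumors and to between 191 and 464 CPM in the controls. Keratinocyte markers (3 of 9 genes tested) summed to 17.7 and 20.3 CPM in photoconverted tumors 2 and 3 and to no more than 4.16 CPM elsewhere, with Krt14 between 0.214 and 5.56 CPM. Mast cell markers (5 of 5 genes tested) summed to 15.3, 16.9, 20.8 and 7.38 CPM in photoconverted tumors 1 to 4 and to between 6.04 and 13.0 CPM in the controls, with Cpa3 between 0.214 and 4.29 CPM. The part of these cell types in the values of Serpinb2 was not tested.

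**Figure D1:**
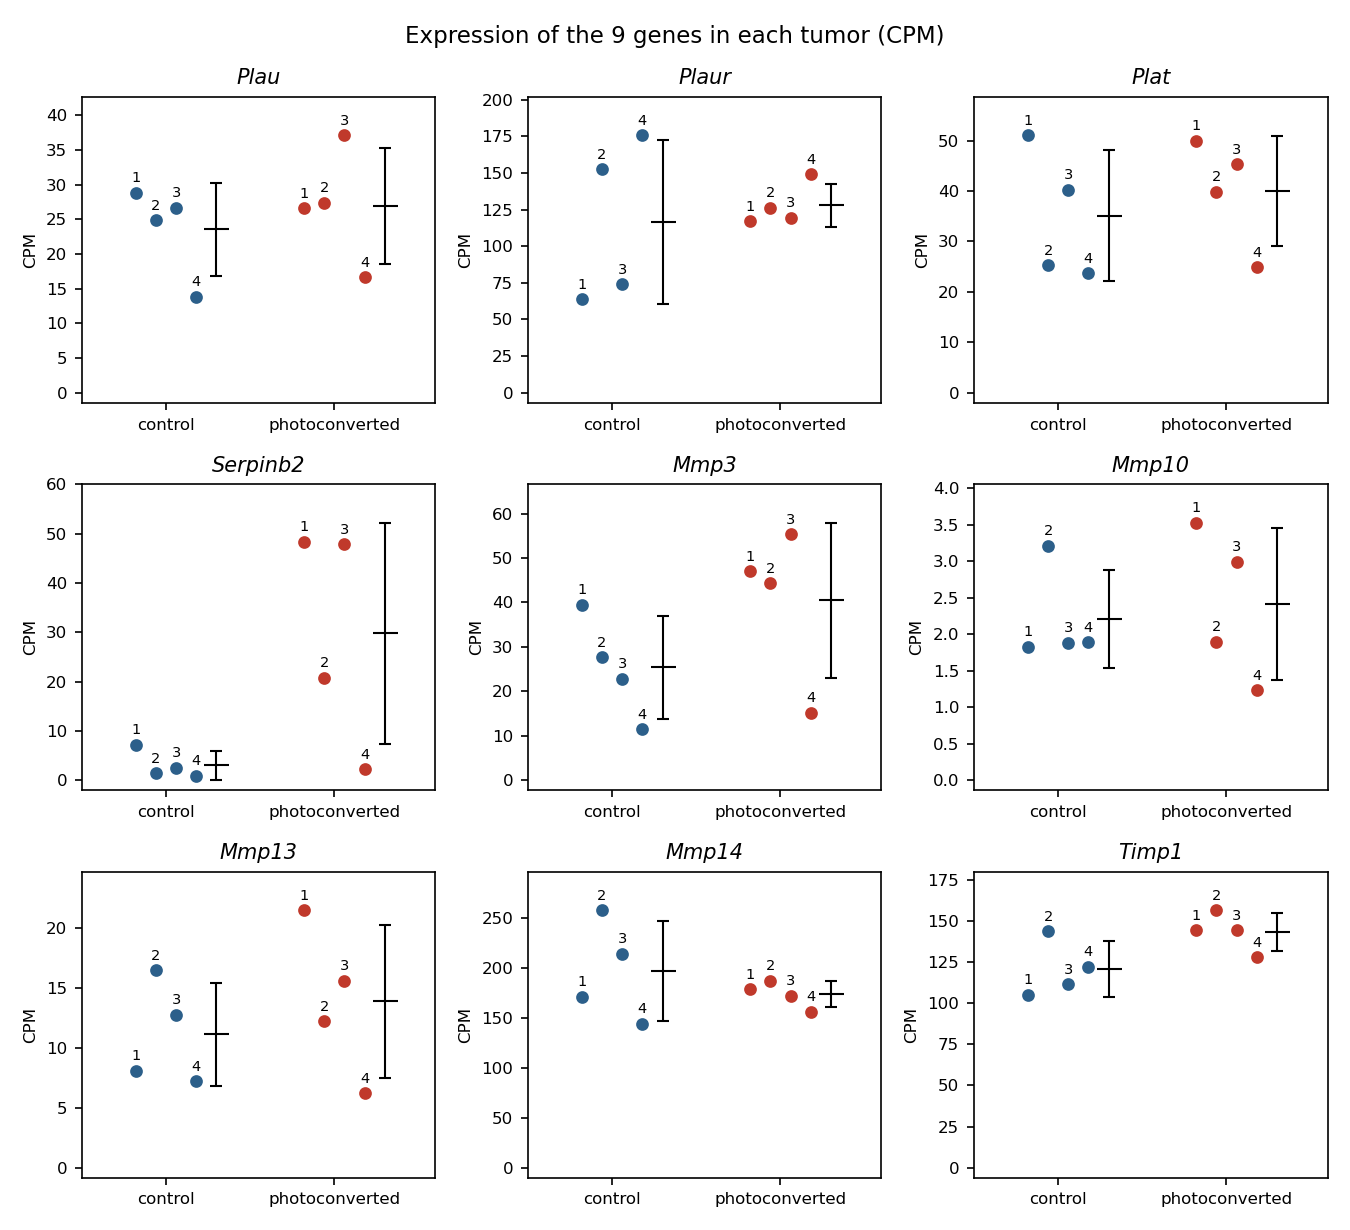
CPM (vertical axis, linear and including 0) of the 9 genes in each of 4 control (blue) and 4 photoconverted (red) tumors, where numbers are replicate numbers and black bars are the mean ± SD (n = 4). Serpinb2 reached 20.8 to 48.3 CPM in photoconverted tumors 1 to 3, and in 8 of the 9 panels, all but Plaur, photoconverted tumor 4 lay below the other photoconverted tumors.

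The activators themselves differed less between the groups than within them. Plau had 26.6, 27.4, 37.2 and 16.7 CPM in photoconverted tumors 1 to 4 and 28.9, 24.8, 26.7 and 13.9 CPM in the controls 1 to 4. Tumor 4 was the lowest of both groups. The means were 26.9 ± 8.37 and 23.6 ± 6.68 CPM (SD, n = 4 each), with a log2 fold change of 0.19 (standard error 0.28) in edgeR, which was 0.01 without control tumor 4 and 0.36 without photoconverted tumor 4. Plat had 49.96, 39.9, 45.3 and 24.9 CPM in photoconverted and 51.1, 25.3, 40.3 and 23.7 CPM in the controls. Its 2 groups covered nearly the same range, and the log2 fold change was 0.19 (standard error 0.29). The fold change of Plat was 0.04 without control tumor 4 and 0.42 without control tumor 1. In the Rn45s-poor tumors the log2 fold changes were 0.13 (standard error 0.16) for Plau and -0.02 (standard error 0.14) for Plat. The 3 Rn45s-rich libraries held the 3 lowest values of both activators, 13.9 to 24.8 CPM of Plau and 23.7 to 25.3 CPM of Plat. Plau is located at chr14:20836660-20843385 and Plat at chr8:22757727-22782844, both on the plus strand.

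Plaur, the urokinase receptor, had the opposite order. It had 117, 126, 119 and 149 CPM in photoconverted tumors 1 to 4, and 63.8, 153, 74.3 and 176 CPM in the controls 1 to 4. The highest 3 values were those of the 3 Rn45s-rich libraries, irrespective of group. The log2 fold change over 8 tumors was 0.14 (standard error 0.31), because control tumors 2 and 4 were above the photoconverted tumors of the same number and control tumors 1 and 3 were below them. In the Rn45s-poor tumors, the 3 photoconverted tumors had 117 to 126 CPM and the 2 control tumors 63.8 and 74.3 CPM. Serpinb2, Mmp3, Timp1 and, only just, Mmp10 were also higher in each of these photoconverted tumors than in both controls. The share of all genes with such a separation was not counted. The edgeR log2 fold change of Plaur in these tumors was 0.81 with a standard error of 0.10. In that fit Plaur was the single member with an adjusted p under 0.05 (0.0291, edgeR quasi-likelihood F test, Benjamini-Hochberg over 15252 genes). That fit called 0.275% of all genes, and 0.243% as higher in photoconverted tumors. The adjusted p of Plaur comes from tumors that were in view when the gene was listed, so it supports no test and nothing is read from it. Over all 8 tumors its adjusted p was 0.999 (edgeR quasi-likelihood F test). In the remaining libraries, photoconverted tumor 4 was 0.14 lower on the log2 scale than the mean of control tumors 2 and 4, a value of 1 library against 2.

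Of the matrix metalloproteinases, Mmp3 (stromelysin-1), which cleaves many matrix proteins, had 47.0, 44.3, 55.4 and 15.2 CPM in photoconverted tumors 1 to 4 and 39.5, 27.7, 22.8 and 11.5 CPM in the controls. Photoconverted tumors 1 to 3 exceeded every control tumor, and the photoconverted tumor was higher in all 4 same-numbered pairs, by 0.25, 0.68, 1.27 and 0.40 on the log2 scale. The mean was 40.5 ± 17.5 CPM against 25.4 ± 11.6 CPM (SD, n = 4 each), and the log2 fold change was 0.67 (standard error 0.43), with 0.43 without control tumor 4 and 0.98 without control tumor 1. It was 0.64 (standard error 0.22) among the Rn45s-poor tumors.

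Mmp10 (stromelysin-2), the paralog of Mmp3, was far lower, at 3.53, 1.89, 2.99 and 1.23 CPM in photoconverted and 1.83, 3.21, 1.88 and 1.89 CPM in the controls, from 18 to 141 reads per tumor. The groups overlapped, with the photoconverted tumor higher in pairs 1 and 3 and lower in pairs 2 and 4. Mmp13, a collagenase, had 21.5, 12.2, 15.6 and 6.22 CPM in photoconverted and 8.11, 16.5, 12.8 and 7.20 CPM in the controls. It followed the same pattern by pair, with log2 differences of 1.40, -0.43, 0.29 and -0.21. The log2 fold changes were 0.18 (standard error 0.36) for Mmp10 and 0.34 (standard error 0.38) for Mmp13. In the Rn45s-poor tumors they were 0.60 (standard error 0.32) and 0.66 (standard error 0.28). That of Mmp13 was 0.04 without photoconverted tumor 1 and 0.57 without control tumor 2, and that of Mmp10 was -0.07 and 0.39 in the same order. Mmp10 and Mmp13 thus resembled each other across tumors more than either resembled Mmp3. The root mean square difference of their log2 CPM, each relative to its own mean over 8 tumors, was 0.26 between Mmp10 and Mmp13, 0.62 between Mmp10 and Mmp3 and 0.56 between Mmp13 and Mmp3.

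Mmp14, which encodes the membrane-anchored protease MT1-MMP that activates pro-Mmp2, was abundant and had the only negative fold change of the 9 genes. It had 178, 187, 172 and 156 CPM in photoconverted tumors 1 to 4 and 171, 258, 214 and 144 CPM in the controls 1 to 4. The photoconverted values lay inside the range of the controls, and the log2 fold change was -0.18 (standard error 0.18). Control tumor 2, with the highest Mmp14, also had the highest sum of 9 fibroblast markers (12437 CPM, against 3231 to 4773 CPM in the other tumors). The collagens Col1a1, Col1a2 and Col3a1 made up 12256 CPM of it, and the other 6 markers summed to 181 CPM, within the 134 to 516 CPM of the other tumors. The part of these markers in the Mmp14 value was not tested. The log2 fold change was -0.03 without control tumor 2, -0.305 without control tumor 4 and -0.10 (standard error 0.12) in the Rn45s-poor tumors.

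Timp1, the secreted inhibitor, varied the least. It had 145, 157, 144 and 128 CPM in photoconverted tumors 1 to 4 and 105, 144, 111 and 122 CPM in the controls 1 to 4. Photoconverted tumors 1, 2 and 3 were above all controls, tumors 1 and 3 only just above control tumor 2, and photoconverted tumor 4 lay among the controls. The means were 143 ± 11.7 and 121 ± 17.0 CPM (SD, n = 4 each), with a log2 fold change of 0.25 (standard error 0.13). The photoconverted tumor was higher in 4 of 4 pairs, by 0.46, 0.12, 0.37 and 0.07 on the log2 scale. In the Rn45s-poor tumors, the photoconverted ones had 144 to 157 CPM and the controls 105 and 111 CPM, with a log2 fold change of 0.46 (standard error 0.10). The spread of Timp1 within groups was 0.16 on the log2 scale, which put it at the 17.6th percentile of all genes tested, whereas that of Serpinb2, 1.73, was at the 99.8th percentile. Timp1 is located at chrX:20870166-20874735, within Syn1, which is on the other strand and had no more than 33 reads in any tumor.

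**Figure D2:**
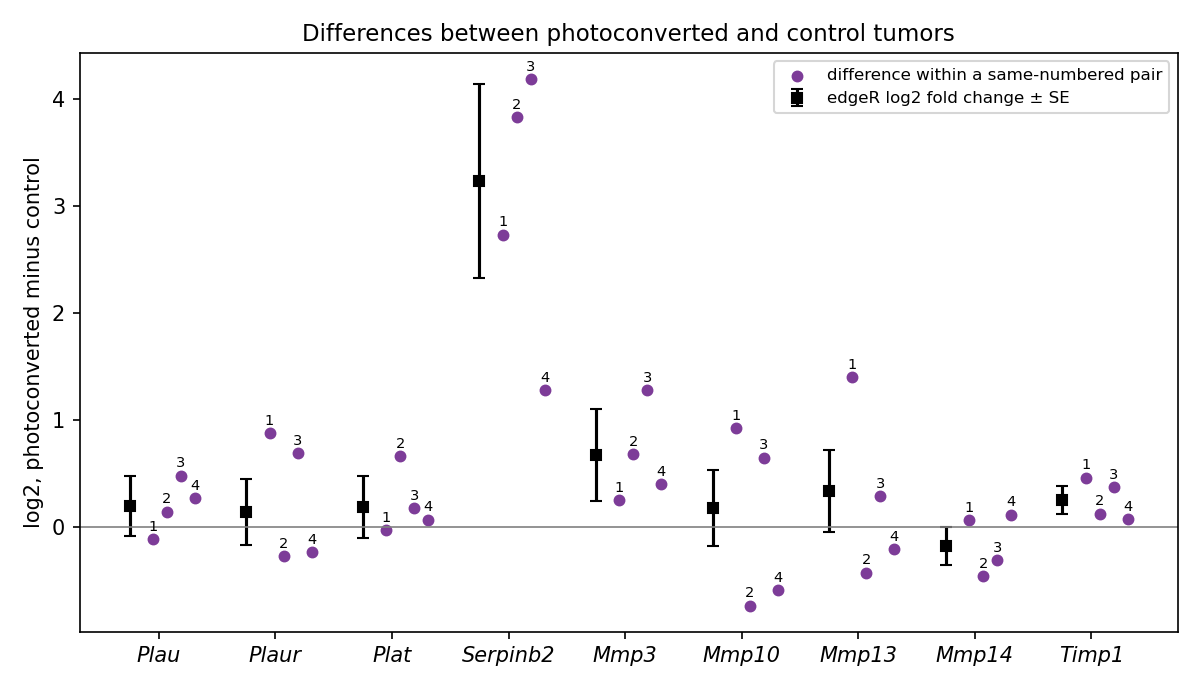
Difference between photoconverted and control tumors on the log2 scale (vertical axis) for each of the 9 genes, as the edgeR log2 fold change with its standard error (black squares) and as the difference of log2 CPM within each same-numbered pair (purple, labeled by number). All 4 pairs were above 0 for Serpinb2, Mmp3 and Timp1, and pairs 1 and 3 lay opposite to pairs 2 and 4 for Plaur, Mmp10 and Mmp13.

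Across the table, edgeR's quasi-likelihood test called 0 of 14468 genes (0%) at an adjusted p under 0.05, and hence none of the 9, with 322 genes (2.23%) at an unadjusted p under 0.05, which included Serpinb2 and none of the other 8. DESeq2 called 0.118% of genes and none of the 9, and limma called none, with 262 genes at an unadjusted p under 0.05. With the replicate number as a block, edgeR again called 0 genes (869, or 6.01%, at an unadjusted p under 0.05, with Serpinb2, Mmp3 and Timp1 among them). Serpinb2 had the smallest p of all genes in that fit (adjusted p = 0.247, log2 fold change 3.25 with a standard error of 0.38). None of the 9 genes had groups without overlap, where 1.33% of all genes did. In 3 of the 9 the photoconverted tumor was higher in every same-numbered pair, against 7.2% of all genes. In 5 of the 9 it was higher in at least 3 pairs, against 32.3% of all genes. Because the list was chosen on the same contrast, nothing is read from these shares.

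The tumors were next set in order of their Rn45s share, which was not used to choose the genes. Plau, Plat and Serpinb2 were lower, and Plaur was higher, at the end of the order where the share exceeded 10%. In each of these 4 genes the CPM of the Rn45s-rich and Rn45s-poor tumors did not overlap, as in 44.4% of all genes tested, so 4 of 9 is a share near the background. Every Rn45s-rich tumor was lower in 21% of all genes and higher in 23.4%. In Mmp3, Mmp10, Mmp13, Mmp14 and Timp1 they did. For Mmp3 the means were 18.1 CPM in Rn45s-rich and 41.8 CPM in Rn45s-poor tumors, and control tumor 2 (27.7 CPM) was above control tumor 3 (22.8 CPM). The 3 Rn45s-rich libraries include a single photoconverted tumor and are the shallowest, so the Rn45s share and depth cannot be told apart.

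**Figure D3:**
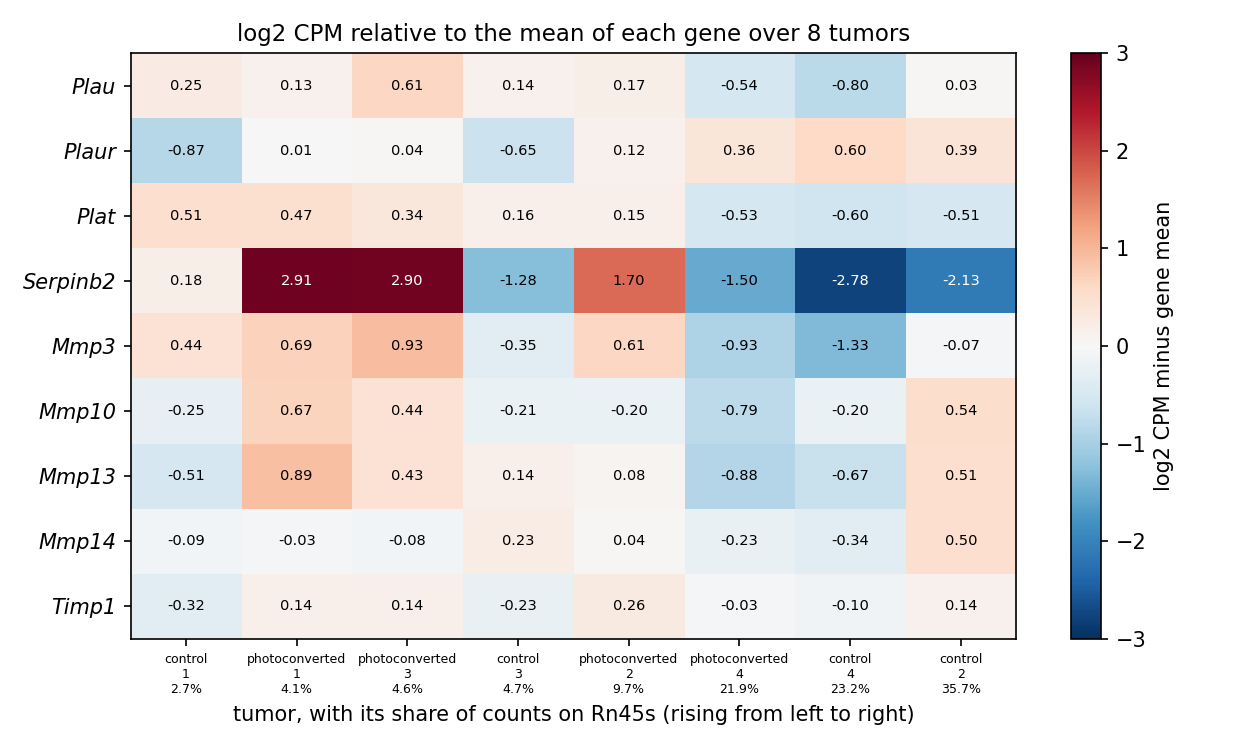
Log2 CPM of each gene minus its mean over 8 tumors (color and printed number), for tumors in order of the percent of counts on Rn45s (horizontal axis). Plaur was between 0.36 and 0.60 above its mean in the 3 tumors on the right, where Plat was between 0.51 and 0.60 below its own.

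The genes also differed in level, a comparison within tumors that did not enter the choice of the list. CPM was divided by the length of the longest GENCODE transcript, and neighbors in the order were compared over 8 tumors by two-sided exact sign-flip permutation tests with Benjamini-Hochberg adjustment over 8 pairs. The order was taken from the mean levels in these same tumors, so the p-values describe how steady each difference was over them. An error in an assumed length would be shared by all tumors, and these p-values do not measure it. Timp1 was the highest at 150 ± 20.6 CPM per kb (SD, n = 8), although Mmp14 came first and Timp1 second when the median length of a gene's transcripts was used. It was above Plaur (60.9 ± 19.1 CPM per kb) in 8 of 8 tumors, by a mean of 1.36 on the log2 scale (adjusted p = 0.0156, exact permutation test; the smallest unadjusted p possible is 0.00781). Plaur and Mmp14 (57.2 ± 11.1 CPM per kb) did not differ beyond their spread (mean log2 difference 0.04, SD 0.61, adjusted p = 0.781, exact permutation test). Mmp14 was above Mmp3 (18.3 ± 8.85 CPM per kb) by 1.805 and Mmp3 above Plau (10.8 ± 3.09 CPM per kb) by 0.64, both in 8 of 8 tumors with the same adjusted p of 0.0156 (exact permutation tests). Plau and Plat (9.29 ± 2.83 CPM per kb) differed by 0.22 in 6 of 8 tumors (adjusted p = 0.0875, exact permutation test). Serpinb2 (8.22 ± 10.3 CPM per kb) differed neither from Plat nor from Mmp13 beyond its spread (adjusted p = 0.104 and 0.616, exact permutation tests). Mmp13 (4.68 ± 1.97 CPM per kb) was above Mmp10 (1.34 ± 0.475 CPM per kb) by 1.77 in 8 of 8 tumors (adjusted p = 0.0156, exact permutation test). These tests take the 8 tumors as independent. With the mean of same-numbered tumors as a unit, these 4 differences and that of Plat over Serpinb2 were positive in 4 of 4 units, where the smallest p of an exact test is 0.125, so none could pass the threshold. The place of Serpinb2 depended on the group, at rank 5 of 9 in photoconverted tumors (14.9 ± 11.2 CPM per kb) and rank 8 in control tumors (1.51 ± 1.45 CPM per kb, SD, n = 4 each). Per length, the receptor Plaur was at 31.7 CPM per kb or more in every tumor of both groups, and the activators Plau and Plat at 15.9 CPM per kb or less.

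**Figure D4:**
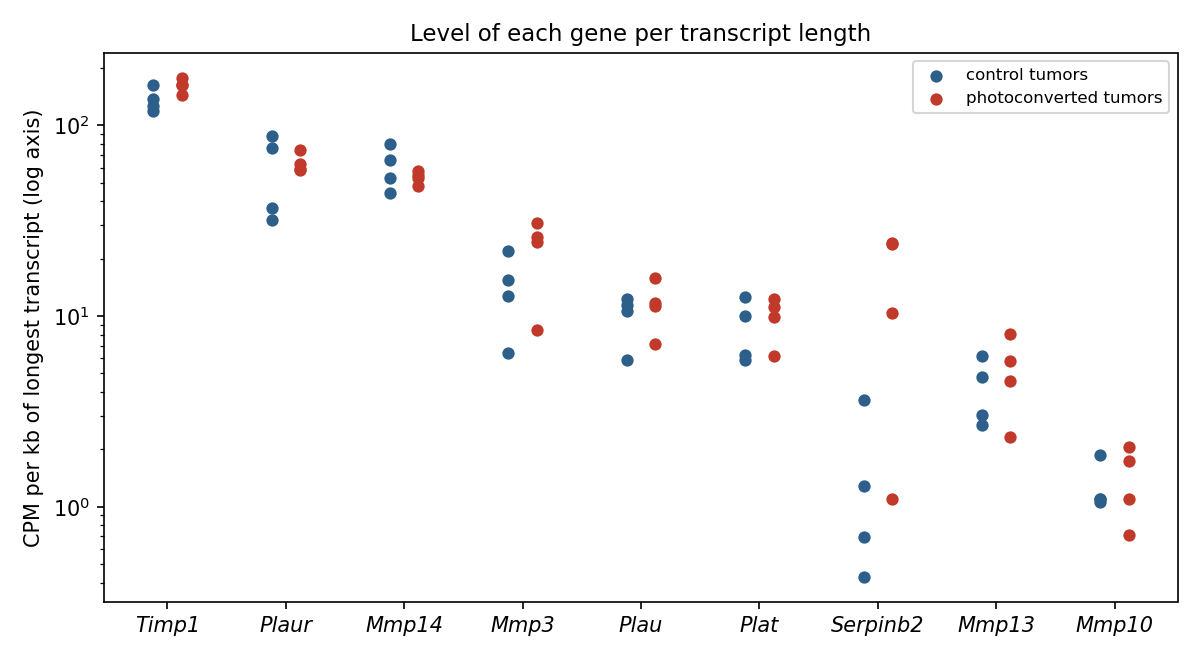
Level of each gene in CPM per kb of its longest transcript (vertical log axis) in 4 control (blue) and 4 photoconverted (red) tumors, with genes in order of their mean over 8 tumors. Timp1 had a mean of 150 CPM per kb and Mmp10 one of 1.34, and the 8 points of Serpinb2 reached from 0.428 to 24.2.

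Mmp3, Mmp10 and Mmp13 are neighbors on chromosome 9 of mm10, at chr9:7445822-7455975, chr9:7502352-7510240 and chr9:7272514-7283331, in a cluster of 10 metalloproteinase genes. Expression along this cluster was not uniform. Mmp3 and Mmp13 were its most abundant genes, followed by Mmp12 (macrophage elastase), with 9.37 ± 8.14 CPM in photoconverted and 5.51 ± 3.10 CPM in the controls (SD, n = 4 each). Mmp8 (neutrophil collagenase) had 1.28, 2.21, 3.03 and 0.478 CPM in photoconverted tumors and 0.885, 0.428, 0.924 and 0.488 CPM in the controls, which placed its 3 highest values in the same tumors as those of Serpinb2. Mmp27 did not exceed 1.89 CPM. Mmp1a and Mmp20 had no read in any tumor, and Mmp1b and Mmp7 had 5 and 3 reads over all 8 tumors. The mouse genes closest to human interstitial collagenase, Mmp1a and Mmp1b, were thus at or near 0 beside expressed neighbors. Serpinb2 also lies in a cluster, between Serpinb7 (3.07 ± 1.33 and 2.60 ± 1.91 CPM in photoconverted and control tumors) and Serpinb8 (5.63 ± 2.22 and 5.43 ± 2.82 CPM). The group means of Serpinb7 and Serpinb8 differed by less than their SDs. Serpinb10, which lies next to Serpinb2 and overlaps it, had 0.418 ± 0.104 and 0.297 ± 0.182 CPM (SD, n = 4 each).

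**Figure D5:**
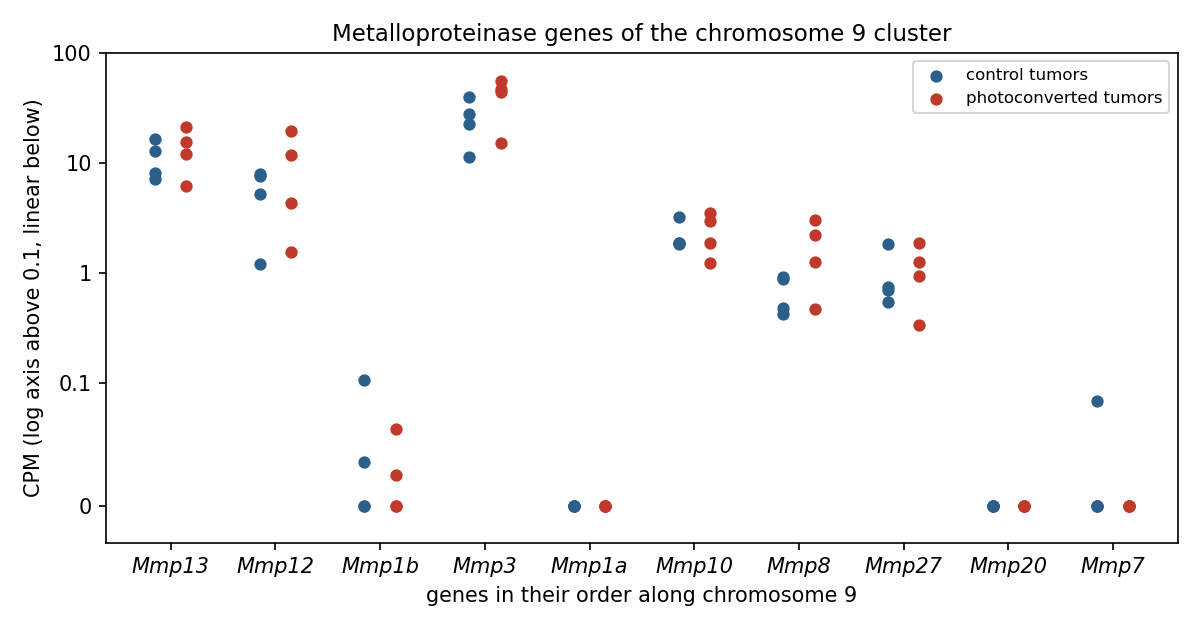
CPM (vertical axis, logarithmic above 0.1 and linear below) of 10 metalloproteinase genes in their order along chromosome 9, in control (blue) and photoconverted (red) tumors. Mmp13, Mmp12 and Mmp3 lie at the top, whereas Mmp1b, Mmp1a, Mmp20 and Mmp7 are at or near 0.

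Promoter sequences of the members were examined because AP-1, the Fos and Jun transcription factor, is a known regulator of stromelysin, collagenase and uPAR genes. RefSeq promoters (GRCm38.p6, 250 bases before to 50 bases after the start) were found for 7 of the 9 genes, without Plau and Plat. The AP-1 core TGANTCA, which reads the same on both strands, was present in 5 of the 7, against 7.81% of all 32851 promoters in the table. A match is a description of letters and not evidence of binding. The 120 bases before the start are printed below for these 5 genes, 5′ to 3′ on the plus strand, with the match in capitals, to show that it lies close to the start in each.
Plaur: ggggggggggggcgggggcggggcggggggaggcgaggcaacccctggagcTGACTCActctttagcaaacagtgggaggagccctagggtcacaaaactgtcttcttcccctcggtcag
Serpinb2: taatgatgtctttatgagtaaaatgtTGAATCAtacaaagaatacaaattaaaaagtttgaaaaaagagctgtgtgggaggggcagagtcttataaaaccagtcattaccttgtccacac
Mmp3: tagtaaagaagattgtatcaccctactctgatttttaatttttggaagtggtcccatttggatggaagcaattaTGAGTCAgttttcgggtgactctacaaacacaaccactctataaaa
Mmp10: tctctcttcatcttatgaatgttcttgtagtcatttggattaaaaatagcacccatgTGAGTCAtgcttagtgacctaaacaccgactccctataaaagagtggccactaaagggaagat
Mmp13: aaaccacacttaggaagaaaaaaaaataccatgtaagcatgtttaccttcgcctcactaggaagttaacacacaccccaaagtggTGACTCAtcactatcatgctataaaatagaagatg

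These windows are chr7:24462363-24462482 for Plaur, chr1:107511303-107511422 for Serpinb2, chr9:7445702-7445821 for Mmp3, chr9:7502222-7502341 for Mmp10 and chr9:7272394-7272513 for Mmp13. The match begins 69, 94, 46, 63 and 35 bases before the start in that order. Plaur and Mmp13 share the form TGACTCA, Mmp3 and Mmp10 share TGAGTCA, which is the same site read on the other strand, and Serpinb2 has TGAATCA. Serpinb2, Mmp3, Mmp10 and Mmp13 also held the letters TATAAA of the TATA box, present in 13.6% of all promoters, whereas Plaur did not. They began 29 bases before the start in Serpinb2 and Mmp10, and 7 and 16 bases before it in Mmp3 and Mmp13. The ETS core AGGAAG was found in 5 of the 7 genes (Plaur, Mmp3, Mmp13, Mmp14 and Timp1) and in 35.4% of promoters. None of the 7 promoters held the CRE TGACGTCA (1.79% of promoters), either of 2 heat shock element patterns (0.770% and 0.603%) or either of 2 NF-kB sequences (0.155% and 0.0396%), all searched on both strands. The 5 genes with the AP-1 core did not move together across tumors. Serpinb2 and Mmp3 were highest in photoconverted tumors 1 to 3, Plaur was highest in control tumor 4, and Mmp10 and Mmp13 were raised in control tumor 2 as in photoconverted tumors 1 and 3. Of 14 other metalloproteinase genes with a promoter in the table, 5 held the core, and these were Mmp1a, Mmp1b, Mmp7, Mmp12 and Mmp20, of which Mmp12 alone passed the filter on low counts.

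The rest of the plasminogen system was described with a list of 21 genes, of which 15 were tested. edgeR and DESeq2 called 0 of the 15, and 3 had an unadjusted p under 0.05 in edgeR, where 2.23% of all genes tested did. All 3 had a positive fold change, among them Thbd and Serpinb2, the latter listed with these values in view. Of the 11 tested genes that are not among the members, 8 had a positive fold change, where 46.8% of all genes tested did. Their median was 0.13 against -0.01 for all genes tested. Thbd, which encodes the anticoagulant receptor thrombomodulin, had 16.7, 18.9, 26.9 and 8.27 CPM in photoconverted and 10.2, 11.3, 7.64 and 5.86 CPM in the controls, with a log2 fold change of 1.02 (standard error 0.34) in edgeR. Vldlr, a receptor that takes up activator and inhibitor complexes, had 54.9 ± 15.8 CPM against 67.4 ± 12.64 CPM (SD, n = 4 each). Anxa2, a cell-surface binding protein for plasminogen and tPA, and the uptake receptor Lrp1 were the most abundant, with 808 ± 126 and 318 ± 56.3 CPM in photoconverted and 751 ± 147 and 358 ± 161 CPM in the controls. Transcripts of the substrate itself were all but absent. Plg, which encodes plasminogen and is made mainly in the liver, had at most 1 read in any tumor, and its plasma inhibitor Serpinf2 at most 6.

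Among 23 metalloproteinase genes, 15 were tested, of which 0 were called by edgeR or DESeq2. Mmp8 and Mmp19, 2 of the 15, had an unadjusted p under 0.05 in edgeR, where 2.23% of all genes tested did. The 11 tested genes that are not among the members had a median of 0.19 on the log2 scale, beside -0.01 over the whole table, and 8 were positive and 3 negative, where 46.8% of all genes tested were positive. Mmp19 had 27.6 ± 8.93 CPM in photoconverted and 17.0 ± 4.47 CPM in the controls (SD, n = 4 each), and was higher in the photoconverted tumor in 4 of 4 pairs. Mmp11 (stromelysin-3) had the opposite sign, with 78.8 ± 14.04 against 99.5 ± 21.0 CPM. Mmp2 (gelatinase A), which is activated by Mmp14, had 68.2 ± 22.3 and 66.1 ± 30.3 CPM. Besides Timp1, the inhibitors Timp2 and Timp3 had 163 ± 42.3 and 35.5 ± 17.0 CPM in photoconverted and 157 ± 47.6 and 24.8 ± 8.92 CPM in the controls, and A2m stayed under 1.75 CPM. None of the 5 tested inhibitor genes was called by edgeR or DESeq2 or had an unadjusted p under 0.05.

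The wider serpin family had 17 tested genes of 23 listed. Of the 16 besides Serpinb2, 15 had a positive fold change, where 46.8% of all genes tested did. Their median was 0.27 against -0.01 for all genes tested. edgeR and DESeq2 called 0 of the 17, and 2 had an unadjusted p under 0.05 in edgeR, where 2.23% of all genes tested did. Of the 2, Serpinb2 was listed with these values in view. Serpina3f had 4.96 ± 3.05 CPM against 2.50 ± 1.28 CPM, and Serpina3i had 1.21 ± 0.969 CPM against 0.494 ± 0.461 CPM (SD, n = 4 each). Both belong to a family of close copies between which reads could have been split. Serpinh1, a collagen chaperone with a serpin fold, and Serpinb6a were the most abundant, with 518 ± 64.4 and 210 ± 40.2 CPM in photoconverted and 492 ± 76.4 and 184 ± 43.9 CPM in the controls.

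Each member was last compared with all tested genes by the root mean square difference of log2 CPM over 8 tumors, each gene relative to its own mean, where a smaller value is a closer profile. The profiles hold the difference between groups that was in view when the members were listed, so the matches are a description. The 3 closest to Serpinb2 were the cytokine Il6 (0.82), the neutrophil gene S100a8 (0.87) and the hyaluronan synthase Has1 (0.90), where the spread of Serpinb2 itself was 2.12 by the same measure and that of the other members between 0.19 and 0.77. In photoconverted tumor 4 and the controls, Il6 did not exceed 0.885 CPM and Has1 did not exceed 0.853 CPM. S100a8 had 3 reads in control tumor 2. Closest to Mmp3 was Chl1 (0.14), to Plau was Anxa6 (0.08), to Plat was Ypel5 (0.06), and to Plaur were Dnd1 (0.12), Pde4c (0.12) and Chka (0.13). Dnd1 and Pde4c rest on under 2 CPM, whereas Chka, a choline kinase, had 30.4 and 33.2 CPM in the controls 1 and 3 and between 50.7 and 70.9 CPM in the other 6 tumors. Irak2 (0.22) was among the 3 closest to Mmp10, AA467197 (0.23) was the closest to Mmp13, Zfp786 (0.08) to Mmp14 and Slc5a3 (0.07) to Timp1.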

How the data were processed

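For the 8 tumors the authors deposited a table of raw counts by gene symbol. Their other deposited table holds normalized values (unit: signal), which equal the raw counts divided by 1 size factor per tumor (0.416 to 1.77) and leave out genes with at most 1 count over all tumors. The submitters' processing notes name HISAT2, featureCounts, DESeq2, Trim Galore and the mm10 build without versions or settings. The strand setting of the counting is not given in the sources used here, and the labels and the methods name different stranded total RNA kits. Each column letter was matched to the tumor with that letter in its label. Raw counts were tested with edgeR 4.0.16 in R 4.3.3 (TMM, filterByExpr, glmQLFit and glmQLFTest, Benjamini-Hochberg adjustment, threshold 0.05), which tested 14468 genes. Alternatives used DESeq2 1.42.0 and limma 3.58.1 (on log2 of the normalized values plus 1). CPM values were computed with TMM factors, and the log2 scale of CPM used a prior count of 2. The fits were tested on simulated data, and the outcome is not reported here. Transcript lengths and coordinates came from GENCODE M21 (GRCm38, the same assembly as mm10).

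The members and lists were chosen with earlier results of these data known. The named genes were the 9 members, the 3 other genes of a pathway list with the smallest p and the 2 with the highest level, the 3 genes closest in profile to each member, and the defining marker of each cell type list. Genes of the chromosome 1 and 9 clusters were named by position. Some genes that this rule names are not reported here. Nothing says that tumors of a group came from separate experiments, so p-values measure the spread between these 4 mice per group. Same-numbered tumors deviated together (r of 0.60, 0.11, 0.41 and 0.62 across genes, mean 0.43, against -0.13 for other numbers), the numbers being those of the sample labels, and fits with the number as a block were made. Total counts of 12576615 to 35844417 limit the precision of genes with few reads, such as Mmp10.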

Additional observations from a re-analysis of the deposited data

Results flagged for a closer look

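A tumor stood far from the rest of its group in 2 of the 36 groups of 4 tumors examined, where chance gives about 1.8. That chance count is for any tumor of a group, and none was made for a named tumor. Both cases were control tumor 2. Its Mmp10 level was 3.21 CPM, and the nearest control had 1.89 CPM. That value rests on 30 reads, with a 95% Poisson interval of 2.17 to 4.58 CPM. The sum of its 9 fibroblast markers was 12437 CPM, and the nearest control had 4439 CPM. Of that sum, 12256 CPM came from Col1a1, Col1a2 and Col3a1, and the other 6 markers summed to 181 CPM, within the range of the other tumors. It was also the library with the fewest counts and the largest Rn45s share.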

How the results depend on the processing

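The count of genes past the threshold moved from 0 to 17 (17 higher and 0 lower) with DESeq2's Wald test, and to 42 (37 higher and 5 lower) in the Rn45s-poor tumors alone. It ranged from 0 to 11 when each tumor was left out, and the 11 came without photoconverted tumor 4. It stayed at 0 with limma, RLE normalization, no filter, robust dispersion, Rn45s left out and the replicate block, and the block changed no call of a member or a pathway list. The causes were not tested. Of 144 recomputed fold changes of the 9 genes, 142 moved by less than the spread within groups. The exceptions were Plaur (from 0.14 to 0.81) and Timp1 (from 0.25 to 0.46), both in the Rn45s-poor tumors. The sign of small fold changes was not fixed. The fold change of Plaur was -0.07 without control tumor 1, -0.03 without control tumor 3 and 0.41 without control tumor 4. That of Mmp10 was -0.07 without photoconverted tumor 1 and that of Plat was -0.02 in the 5 tumors. That of Plau was 0.00 without photoconverted tumor 3. For Serpinb2, leaving out each tumor gave 2.91 to 4.15. In the order by level, 4 of 9 genes kept their rank with the median transcript length, which put Mmp14 first, and also in the 5 tumors, where no exact test could reach 0.05. The count of neighbors that differed stayed within 1.5 times of 4 in the other settings, among them the union of exons as length, which was added after the data were seen.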

Other observations

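Proteases outside the matrix metalloproteinase family were also counted. Of 16 listed, all were tested, and 11 had a positive fold change, where 46.8% of all genes tested did, with a median of 0.10 (all genes, -0.01). edgeR and DESeq2 called 0 of them, and 2 had an unadjusted p under 0.05 in edgeR, where 2.23% of all genes did. Adam8, a membrane protease of myeloid cells, had 87.9 ± 16.9 CPM in photoconverted and 63.1 ± 7.02 CPM in the controls, and Adamts1, a secreted protease that cleaves proteoglycans, had 118 ± 30.6 and 78.7 ± 17.1 CPM (SD, n = 4 each). Both were higher in the photoconverted tumor in 4 of 4 same-numbered pairs, as 7.2% of all genes tested were. The cathepsins Ctsb and Ctsl were more abundant, with 913 ± 273 and 387 ± 38.3 CPM in photoconverted and 792 ± 179 and 368 ± 29.2 CPM in the controls.

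Of 15 genes listed as substrates of these proteases, 12 were tested, with 7 positive and 5 negative fold changes and a median of 0.02. edgeR and DESeq2 called 0, and none had an unadjusted p under 0.05 in edgeR. Fga and Fgb, which encode fibrinogen chains made in the liver, had no read in any tumor. Spp1, which encodes osteopontin, had 1411 ± 265 and 1114 ± 272 CPM. Mst1, which encodes a plasma growth factor, had 10.8 ± 0.906 and 13.0 ± 1.06 CPM and was lower in the photoconverted tumor in all 4 pairs. Col1a1 had 981 ± 222 and 1803 ± 1876 CPM (SD, n = 4 each), and the control spread came from control tumor 2 (4607 CPM).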
